A study of Mus musculus with 15 samples.

Results

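The genes described here are 10 targets of the transcription factor p53 whose products promote cell death: Fas, Tnfrsf10b, Bbc3, Pmaip1, Bax, Apaf1, Perp, Trp53inp1, Aen and Ei24. They were chosen by name as p53 targets that promote death, with earlier results of these data known, and were matched by symbol in the deposited gene tables, where all 10 were among 23845 listed genes. Poly(A) RNA was sequenced from E14 cells, a mouse embryonic stem cell line grown on gelatin, in 15 libraries, 3 biological replicates for each of 5 small interfering RNA (siRNA) groups. Ddx10KD, Ddx24KD, Ddx27KD and Ddx54KD cells received siRNA against 1 DEAD-box RNA helicase gene each, and the control cells, EGFPKD, received siRNA against EGFP. The cells of every group were exposed to 400 ng of siRNA with a lipid reagent for 16 h and collected at 48 h, so transfection is common to all 5 groups. The sources used here do not say whether 1 siRNA or several were used per gene. The series title ties the helicases to R-loops and ribosomal RNA processing. The comparisons below ask whether the p53 target genes for cell death differ in each knockdown from EGFPKD, and between the knockdowns.

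Libraries held 26836946 to 27708782 expected counts. The targeted helicase was at 18.5% (Ddx10), 30.8% (Ddx24), 22.7% (Ddx27) and 28.0% (Ddx54) of its EGFPKD mean in the cells labelled with its knockdown. All 10 stem cell markers exceeded 1 TPM (a transcript level corrected for gene length and library depth) in every library, and their summed TPM was 7852 to 8282 in the 12 knockdown libraries and 8070 to 8214 in EGFPKD. Single markers moved within that sum: 3 of the 10 were called lower in Ddx10KD, 2 in Ddx24KD, 3 in Ddx27KD and 2 in Ddx54KD, and 0, 1, 1 and 1 higher, by the edgeR test described below. Over all tested genes 11.2% to 16.1% were called lower and 13.1% to 17.3% higher. With the replicate block, also below, 5, 4, 5 and 4 of the 10 markers were called lower and 2, 3, 3 and 3 higher. Over all genes the block called 18.8% to 22.6% lower and 20.0% to 23.3% higher. The markers named next, Zfp42 and Nanog, are from those called lower. Zfp42 averaged 722 TPM in Ddx10KD, 698 in Ddx24KD, 674 in Ddx27KD and 715 in Ddx54KD, against 871 TPM in EGFPKD, and was called lower in all 4. Nanog averaged 443 TPM in Ddx10KD, 476 in Ddx24KD, 445 in Ddx27KD and 524 in Ddx54KD, against 589 TPM in EGFPKD, and was called lower in all but Ddx54KD (adjusted p = 0.0730 by edgeR). The part of these shifts in the changes below was not tested. Of 10 fibroblast markers, Postn was at 0 in all 15 libraries, and Lum, Dcn and Col3a1 were at or below 0.04 TPM. Col1a2 and S100a4 reached at most 0.17 and 0.51 TPM. Col1a1 was at 0.5 to 1.14 TPM, Pdgfrb at 0.93 to 1.35 and Fbln2 at 0.77 to 1.74. The summed TPM of the 10, most of it Thy1, was 13.02 to 19.1 in the knockdowns and 19.6 to 28.0 in EGFPKD. Of the 4 fibroblast markers tested, 1 was called lower in each knockdown and 0 higher. With the block 1 was again called lower in each, and 2 were called higher in Ddx27KD and 1 in Ddx54KD. In bulk RNA, a change in the number of cells of a kind and a change in RNA per cell cannot be told apart.

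As background, p53 is held low in unstressed cells by the ubiquitin ligase Mdm2 and is released by DNA damage or by disturbed ribosome production, when free ribosomal proteins bind Mdm2. Its death program runs along a receptor arm and a mitochondrial arm. Death receptors at the cell surface activate caspases directly, while BH3-only proteins of the BCL2 family free the pore-former Bax at the mitochondrion, after which cytochrome c assembles with Apaf1 into the caspase-activating apoptosome. Mouse embryonic stem cells carry abundant p53 RNA and are known to die readily after damage.

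p53 binds DNA at a pair of 10-base decamers separated by a short spacer. Promoter windows came from RefSeq (GRCm38.p6) and ran from 250 bases before to 50 bases after an annotated start. For 6 of the 10 genes, 9 windows were searched on both strands for the p53 consensus decamer. The remaining genes, some of which changed more than 2-fold, are not covered by this search. A tie between decamers and the size of a change was therefore not tested. A perfect decamer was found in windows of 3 genes, Bax, Aen and Ei24, and in none of those of Bbc3, Apaf1 and Fas. By window this was 4 of 9, and the Aen windows among them overlap and hold the same decamer. Across the reference table, 2745 of 32851 windows of this length held at least 1, which is 8.36%. The windows below are shown because Bax, Aen and Ei24, with a decamer, are the 3 genes with the smallest changes reported further on, and Apaf1, without one, changed more than 2-fold. Capitals mark the decamer. The Bax window (chr7:45466849-45467148, minus strand) has it beginning 201 bases before the start, the Aen window (chr7:78895677-78895976, plus strand) 10 bases after the start, and the Ei24 window (chr9:36797285-36797584, minus strand) 10 bases before it. Another Aen window (chr7:78895808-78896107, plus strand), from a different annotated start and not printed, holds the same decamer beginning 121 bases before that start. The Apaf1 window is chr10:91082694-91082993 on the minus strand.
Bax: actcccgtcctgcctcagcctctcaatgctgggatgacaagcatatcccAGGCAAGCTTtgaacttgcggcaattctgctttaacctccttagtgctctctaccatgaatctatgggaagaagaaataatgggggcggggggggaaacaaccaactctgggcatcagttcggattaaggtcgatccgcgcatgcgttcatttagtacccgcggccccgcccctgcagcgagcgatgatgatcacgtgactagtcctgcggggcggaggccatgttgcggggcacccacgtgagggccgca
Aen: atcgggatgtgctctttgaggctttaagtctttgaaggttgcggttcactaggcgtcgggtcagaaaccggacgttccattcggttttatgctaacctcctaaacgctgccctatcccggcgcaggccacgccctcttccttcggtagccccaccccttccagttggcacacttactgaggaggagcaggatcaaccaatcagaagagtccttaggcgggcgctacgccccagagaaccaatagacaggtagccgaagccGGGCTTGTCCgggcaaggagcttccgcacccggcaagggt
Ei24: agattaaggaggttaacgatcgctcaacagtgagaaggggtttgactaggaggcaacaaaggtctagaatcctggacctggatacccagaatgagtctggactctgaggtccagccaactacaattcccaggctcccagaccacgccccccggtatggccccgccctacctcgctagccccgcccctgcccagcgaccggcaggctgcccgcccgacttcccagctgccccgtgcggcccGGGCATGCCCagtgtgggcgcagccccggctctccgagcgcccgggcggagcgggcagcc
Apaf1: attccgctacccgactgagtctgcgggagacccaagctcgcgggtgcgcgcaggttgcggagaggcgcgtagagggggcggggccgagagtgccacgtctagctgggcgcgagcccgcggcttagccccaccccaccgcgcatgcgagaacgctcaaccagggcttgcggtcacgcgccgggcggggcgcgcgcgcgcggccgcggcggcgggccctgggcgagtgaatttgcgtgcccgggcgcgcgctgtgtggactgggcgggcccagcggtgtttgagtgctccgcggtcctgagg
Allowing a spacer of up to 13 bases, the closest full site had 2 mismatches in the Bax window, 3 in the Aen window, 4 in the Ei24 window and 5 in the Apaf1 window. A site at least that close was held by 4.09%, 15.6%, 40.4% and 68.7% of all windows. These matches describe letters in short windows only, and no binding was measured.

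All 10 genes were higher in each of the 4 knockdowns than in EGFPKD. Every knockdown library lay above every EGFPKD library for all 10 genes in each comparison, which held for 23.8% of the tested genes in Ddx10KD, 21.1% in Ddx24KD, 23.4% in Ddx27KD and 20.7% in Ddx54KD. In a quasi-likelihood test in edgeR over 14335 genes that passed a count filter, with Benjamini-Hochberg adjustment over all of them and a call at an adjusted p under 0.05, 10 of 10 were called higher in Ddx10KD, where 16.5% of all tested genes were. The same 10 were called higher in Ddx24KD (15% of all genes), in Ddx27KD (17.3%) and in Ddx54KD (13.1%). The median log2 change of the 10 genes was 1.14 in Ddx10KD, 1.19 in Ddx24KD, 1.38 in Ddx27KD and 1.05 in Ddx54KD. Over all tested genes the median was 0.0074 in Ddx10KD, 0.0031 in Ddx24KD, 0.0059 in Ddx27KD and 0.0081 in Ddx54KD. Fas, with few reads in EGFPKD, passed the filter only through the knockdown libraries. Without it 9 of 9 genes were called higher in each knockdown, with a median log2 change of 1.06 in Ddx10KD, 1.06 in Ddx24KD, 1.28 in Ddx27KD and 0.93 in Ddx54KD. The 4 comparisons share the same 3 EGFPKD libraries, so they are not independent of each other.

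A change of at least 2-fold was reached by 6 genes in Ddx10KD (3.92% of all genes), 6 in Ddx24KD (3.73%), 6 in Ddx27KD (4.68%) and 5 in Ddx54KD (3.28%). The 6 were Fas, Perp, Trp53inp1, Pmaip1, Apaf1 and Bbc3, and in Ddx54KD Bbc3 was just under that size. Without Fas, 5 of 9 genes reached 2-fold in each of Ddx10KD, Ddx24KD and Ddx27KD, and 4 of 9 in Ddx54KD. Bbc3 and Pmaip1, the BH3-only genes of the 10, and Apaf1 of the apoptosome were thus at or near 2-fold or above. The pore-former Bax had the smallest change of the 10 in each knockdown. Of the 2 receptors only Fas, with its few reads, exceeded 2-fold, and Tnfrsf10b stayed under it in all 4 comparisons.

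**Figure D1:**
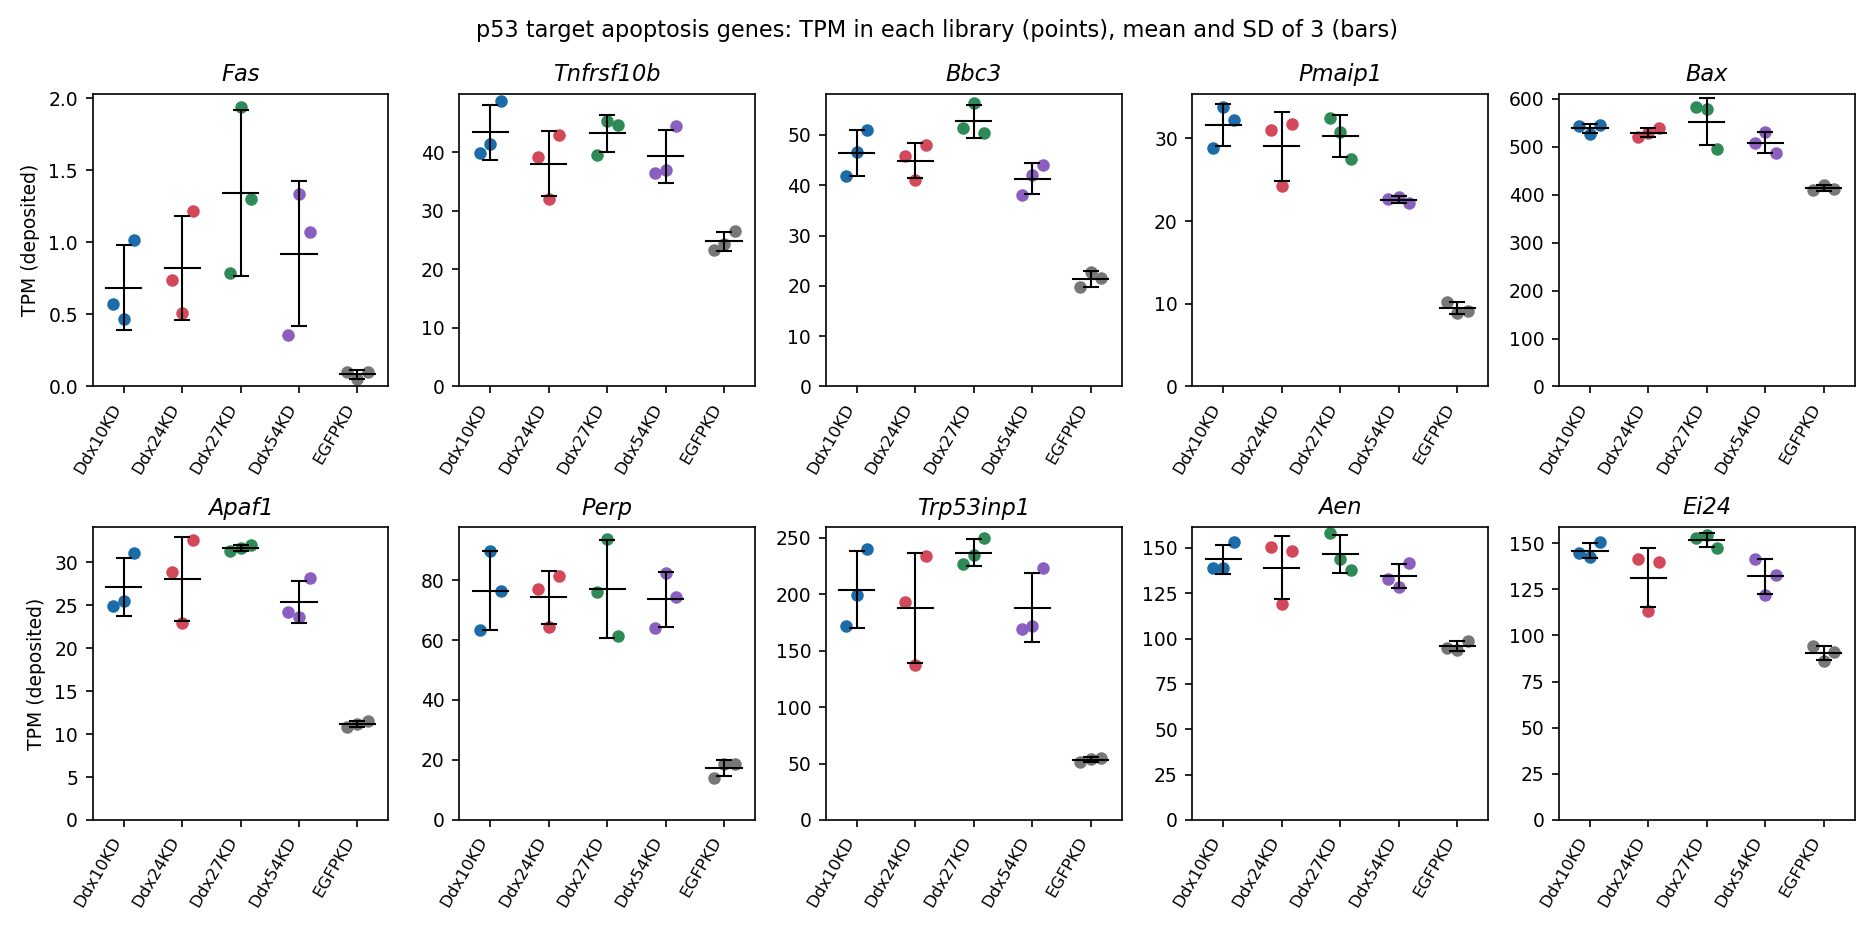
Deposited TPM (vertical axis, from 0, scaled for each gene) of the 10 genes in every library; points are libraries, and bars are the mean and SD of 3 per group, with the knockdowns to the left of EGFPKD. In each panel the 12 knockdown points lie above the 3 EGFPKD points, with Bax at 488 to 582 TPM in the knockdowns and Fas at 0.36 to 1.94 TPM.

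The 2 death receptors differed in level. Fas (chr19:34290666-34327772, plus strand, mm10) encodes the receptor for Fas ligand. Its TPM was 0.57, 0.47 and 1.02 in Ddx10KD, 0.74, 0.51 and 1.22 in Ddx24KD, 0.79, 1.94 and 1.30 in Ddx27KD, and 0.36, 1.34 and 1.07 in Ddx54KD, against 0.10, 0.05 and 0.10 in EGFPKD. These levels rest on few reads, 37 summed counts in Ddx10KD, 45 in Ddx24KD, 75 in Ddx27KD and 47 in Ddx54KD, against 5 in EGFPKD. As it passed the count filter only through the knockdown libraries, its call is not read as support for the group. The depth-scaled ratio to EGFPKD was 7.28 in Ddx10KD (exact 95% interval 2.85 to 23.7), 9.07 in Ddx24KD (3.61 to 29.3), 14.99 in Ddx27KD (6.15 to 47.5) and 9.28 in Ddx54KD (3.71 to 29.9). These intervals cover counting error only and share the same 5 EGFPKD counts, so their overlap says nothing of the order of the knockdowns. Compared directly, Fas differed between Ddx10KD and Ddx27KD by -1.03 on the log2 scale (95% interval -1.91 to -0.16), which was not called after adjustment (adjusted p = 0.353 by edgeR). The fitted log2 change was 2.77 ± 0.69 (SE) in Ddx10KD, 3.09 ± 0.66 in Ddx24KD, 3.81 ± 0.61 in Ddx27KD and 3.12 ± 0.66 in Ddx54KD, and it depends on the prior count that edgeR adds. In the authors' deposited EBSeq tables, Fas had a posterior probability of differential expression of 2.87e-08 in Ddx10KD, beside a ratio of 5.98, and of at least 0.999 in the other 3 knockdowns.

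Tnfrsf10b (chr14:69767472-69784411, plus strand), the mouse receptor for the ligand TRAIL, was well covered by reads. Its TPM was 39.9, 41.5 and 48.7 in Ddx10KD, 39.2, 32.0 and 42.9 in Ddx24KD, 39.6, 45.3 and 44.7 in Ddx27KD, and 36.4, 36.9 and 44.5 in Ddx54KD, against 23.4, 24.3 and 26.6 in EGFPKD. The nearest knockdown library, Ddx24KD replicate 2, was still above all EGFPKD libraries. Tnfrsf10b had a log2 change of 0.75 ± 0.097 (SE) in Ddx10KD, 0.61 ± 0.097 in Ddx24KD, 0.78 ± 0.097 in Ddx27KD and 0.64 ± 0.097 in Ddx54KD, with adjusted p from 1.73e-05 to 0.000259 by edgeR.

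Both BH3-only genes of the 10 rose. Bbc3 (chr7:16308393-16318205, plus strand), which encodes PUMA, an activator of Bax and antagonist of the pro-survival BCL2 proteins, had 41.9, 46.5 and 51.0 TPM in Ddx10KD, 45.7, 41.1 and 47.9 in Ddx24KD, 51.3, 56.4 and 50.4 in Ddx27KD, and 38.1, 42.0 and 43.9 in Ddx54KD, against 19.8, 22.8 and 21.5 in EGFPKD. Replicates of a group were close together, and the Ddx27KD libraries lay above all Ddx24KD and all Ddx54KD libraries. Its log2 change was 1.06 ± 0.087 (SE) in Ddx10KD, 1.06 ± 0.087 in Ddx24KD, 1.28 ± 0.087 in Ddx27KD and 0.93 ± 0.087 in Ddx54KD, with adjusted p from 4.94e-08 to 2.46e-06. Pmaip1 (chr18:66458533-66465565, plus strand), which encodes NOXA, an antagonist of the pro-survival protein MCL1, had 28.9, 33.8 and 32.3 TPM in Ddx10KD, 31.1, 24.2 and 31.8 in Ddx24KD, 32.5, 30.8 and 27.5 in Ddx27KD, and 22.7, 22.95 and 22.2 in Ddx54KD, against 10.3, 8.88 and 9.18 in EGFPKD. The 3 Ddx54KD libraries were lower than the 9 libraries of the other knockdowns and higher than EGFPKD. Pmaip1 had a log2 change of 1.69 ± 0.10 (SE) in Ddx10KD, 1.61 ± 0.10 in Ddx24KD, 1.66 ± 0.10 in Ddx27KD and 1.24 ± 0.10 in Ddx54KD, with adjusted p from 2.71e-08 to 8.61e-07.

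Bax (chr7:45461697-45466898, minus strand), the pore-forming effector at the mitochondrion, was the most abundant of the 10 genes per length and the one with the smallest change. Its TPM was 543, 527 and 545 in Ddx10KD, 521, 528 and 539 in Ddx24KD, 582, 579 and 496 in Ddx27KD, and 507, 531 and 488 in Ddx54KD, against 410.1, 421 and 412 in EGFPKD. The groups did not overlap with EGFPKD. The log2 change was 0.32 ± 0.066 (SE) in Ddx10KD, 0.34 ± 0.066 in Ddx24KD, 0.39 ± 0.066 in Ddx27KD and 0.27 ± 0.066 in Ddx54KD, which is 1.21-fold to 1.31-fold, with adjusted p from 0.000297 to 0.00621. Its promoter window is the one above with a decamer 201 bases before the start. Apaf1 (chr10:90989311-91082770, minus strand), the scaffold of the apoptosome, had 24.9, 25.5 and 31.1 TPM in Ddx10KD, 28.8, 22.9 and 32.6 in Ddx24KD, 31.4, 31.7 and 32.0 in Ddx27KD, and 24.3, 23.7 and 28.2 in Ddx54KD, against 10.8, 11.2 and 11.6 in EGFPKD. The Ddx27KD replicates were nearly equal, while those of the other knockdowns spread over several TPM. For Apaf1 the log2 change was 1.22 ± 0.098 (SE) in Ddx10KD, 1.32 ± 0.098 in Ddx24KD, 1.48 ± 0.098 in Ddx27KD and 1.16 ± 0.098 in Ddx54KD, with adjusted p from 3.60e-08 to 8.61e-07.

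Among the remaining genes, Perp and Trp53inp1 had the largest changes outside Fas. Perp (chr10:18845020-18857073, plus strand) encodes a tetraspan membrane protein that is needed for p53-dependent death in some mouse cells and for desmosomes in skin. Its TPM was 63.4, 89.8 and 76.2 in Ddx10KD, 77.2, 64.2 and 81.3 in Ddx24KD, 75.9, 93.7 and 61.2 in Ddx27KD, and 64.1, 82.5 and 74.2 in Ddx54KD, against 14.2, 18.7 and 18.7 in EGFPKD. The lowest knockdown library was more than 3 times the highest EGFPKD library. For Perp the log2 change was 2.10 ± 0.18 (SE) in Ddx10KD, 2.09 ± 0.18 in Ddx24KD, 2.14 ± 0.18 in Ddx27KD and 2.08 ± 0.18 in Ddx54KD, with adjusted p from 2.73e-07 to 9.52e-07. Trp53inp1 (chr4:11156431-11174379, plus strand), a stress protein that promotes p53 activity and autophagy, had 172, 199 and 240.0 TPM in Ddx10KD, 194, 137 and 234 in Ddx24KD, 227, 234 and 249.8 in Ddx27KD, and 169, 172 and 223 in Ddx54KD, against 51.0, 53.6 and 55.3 in EGFPKD. Its replicates spread most in Ddx24KD, where replicate 2 was the lowest of all knockdown libraries. The log2 change was 1.88 ± 0.15 (SE) in Ddx10KD, 1.81 ± 0.15 in Ddx24KD, 2.13 ± 0.15 in Ddx27KD and 1.80 ± 0.15 in Ddx54KD, with adjusted p from 5.34e-08 to 6.17e-07.

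Aen and Ei24 had changes of less than 2-fold. Aen (chr7:78895854-78911209, plus strand), a nuclease that promotes DNA breakdown in dying cells, had 139, 139 and 153 TPM in Ddx10KD, 150.3, 119 and 148 in Ddx24KD, 158, 144 and 138 in Ddx27KD, and 133, 129 and 142 in Ddx54KD, against 94.9, 93.5 and 98.9 in EGFPKD. All knockdown libraries lay above EGFPKD, with Ddx24KD replicate 2 the nearest. The log2 change was 0.53 ± 0.071 (SE) in Ddx10KD, 0.53 ± 0.071 in Ddx24KD, 0.59 ± 0.071 in Ddx27KD and 0.47 ± 0.071 in Ddx54KD, with adjusted p from 1.17e-05 to 0.000187. Ei24 (chr9:36779159-36797393, minus strand), a membrane protein of the endoplasmic reticulum known as a p53-induced gene, had 145, 143 and 150.5 TPM in Ddx10KD, 141, 113 and 139.7 in Ddx24KD, 153, 155 and 147 in Ddx27KD, and 141, 122 and 133 in Ddx54KD, against 94.2, 86.3 and 91.0 in EGFPKD. The Ddx27KD libraries lay above those of Ddx24KD and Ddx54KD, and all were above EGFPKD. For Ei24 the log2 change was 0.63 ± 0.066 (SE) in Ddx10KD, 0.52 ± 0.066 in Ddx24KD, 0.72 ± 0.066 in Ddx27KD and 0.52 ± 0.066 in Ddx54KD, with adjusted p from 9.38e-07 to 3.97e-05.

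In the GENCODE M21 annotation a predicted gene overlaps Apaf1 (Gm25390) and Ei24 (Gm26787) on the opposite strand, and Bax (Gm45808) and Fas (Gm27818) on the same strand. None of these 4 is in the deposited gene tables. The sources used here do not say whether the libraries kept strand, so reads of these 4 could be counted with the gene they overlap.

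**Figure D2:**
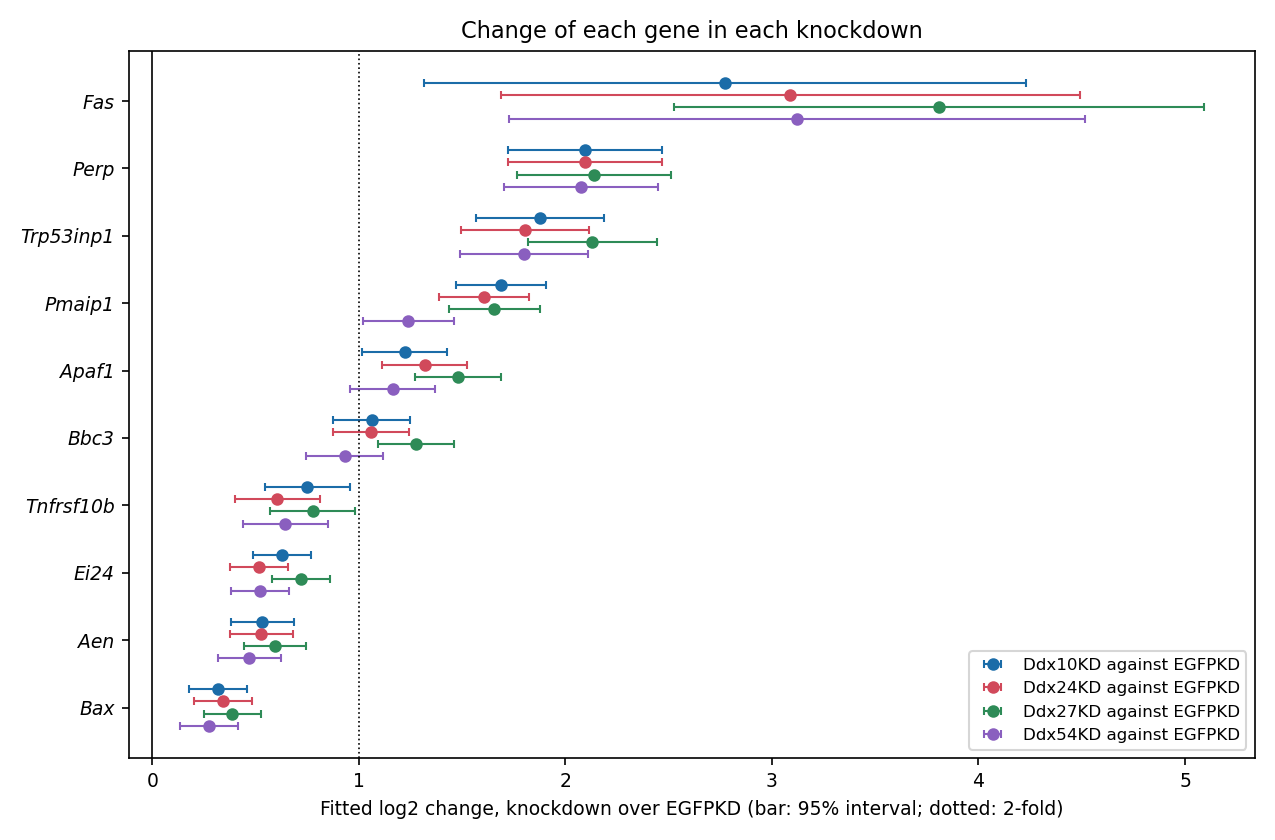
Fitted log2 change of each gene in each knockdown over EGFPKD (horizontal axis); points are estimates, bars 95% intervals, and the dotted line marks 2-fold. All 40 intervals lie to the right of 0; Bax is at 0.27 to 0.39 and Perp at 2.08 to 2.14.

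The authors' deposited EBSeq tables put a posterior probability of at least 0.95, with a ratio above 1, on 9 of the 10 genes in Ddx10KD (8.48% of the genes in that table), Fas being the exception. All 10 passed in Ddx24KD (6.43%), in Ddx27KD (8.82%) and in Ddx54KD (6.42%). The deposited ratio of Pmaip1 in Ddx24KD was 2.76, against a ratio of 3.05 computed from the deposited library counts, a difference larger than for the other 8 genes outside Fas. Other genes departed in Ddx24KD too. Outside Fas, the deposited ratio over the computed one was 0.905 for Pmaip1, 0.970 for Apaf1 and 0.972 for Perp, and up to 1.010 for Tnfrsf10b. In the other knockdowns it was 0.994 to 0.997 outside Fas. The sources used here do not give the settings behind these tables.

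The knockdowns differed by small steps, and below the highest their order varied from gene to gene. By mean CPM, counts scaled to library size, Ddx27KD was highest for 9 of the 10 genes and Ddx54KD the lowest knockdown for 7. The lowest was Ddx24KD for Tnfrsf10b and Ei24, and Ddx10KD for Fas. All 10 genes were read in the same libraries, so these counts are not independent from gene to gene. The matching shares over all tested genes were not computed, so the counts are not read as particular to these genes. In TPM, Tnfrsf10b was marginally higher in Ddx10KD (43.4) than in Ddx27KD (43.2). The highest mean CPM of a knockdown exceeded the lowest by 1.04-fold for Perp, 1.08-fold for Bax and 1.36-fold for Pmaip1, and by 2.05-fold for Fas. Within groups the same library was often lowest or highest. Ddx24KD replicate 2 was the lowest of its group for 9 of the 10 genes, while Ddx10KD replicate 3 and Ddx24KD replicate 3 were each the highest of theirs for 8. For these library counts, too, the shares over all genes were not computed. The part of these single libraries in the order of the knockdowns was not tested beyond leaving each out.

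Differences between knockdowns were tested directly for the 6 pairs, 60 values in all, with adjustment over all 14335 genes in each pair. The single call was Pmaip1 in Ddx10KD over Ddx54KD, at a log2 difference of 0.45 ± 0.097 (SE) and adjusted p = 0.0318 by edgeR, and 1.43% of all genes were called in that pair. No gene of the 10 was called in Ddx10KD against Ddx24KD (0.412% of all genes), Ddx10KD against Ddx27KD (0.223%), Ddx24KD against Ddx27KD (0.0209%), Ddx24KD against Ddx54KD (0.0558%) or Ddx27KD against Ddx54KD (0.0140%). Of the 60 values, 13 had an unadjusted p under 0.05 (21.7%), as did 9.22% of all gene values in the 6 pairs. In Ddx27KD against Ddx54KD these were 5 of 10 genes, beside 7.75% of all genes. The Pmaip1 call was lost without Ddx10KD replicate 2 (adjusted p = 0.137 by edgeR) or 3 (0.112) and without Ddx54KD replicate 1 (0.0871), 2 (0.0961) or 3 (0.106).

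Libraries with the same replicate number deviate together, and with the replicate number as a block 7 of the 60 values were called by edgeR. Ddx27KD exceeded Ddx54KD for Pmaip1 (log2 difference 0.42, adjusted p = 0.0186 by edgeR), Bbc3 (0.35, 0.00945), Apaf1 (0.32, 0.0178) and Ei24 (0.20, 0.0469), where 2.62% of all genes were called. Pmaip1 was also higher in Ddx10KD than in Ddx54KD (0.45, 0.00346; 10.6% of all genes) and in Ddx24KD than in Ddx54KD (0.37, 0.0432; 1.74%). Apaf1 was lower in Ddx10KD than in Ddx27KD, by a difference of -0.26 (0.0294; 5.34%). No gene of the 10 was called with the block in Ddx10KD against Ddx24KD (5.41%) or in Ddx24KD against Ddx27KD (0.0558%). For Perp, no pair was called in either fit, and the 95% interval of the unblocked difference between Ddx10KD and Ddx24KD ran from -0.34 to 0.34. For Bax the interval of Ddx10KD over Ddx24KD was -0.16 to 0.11.

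**Figure D3:**
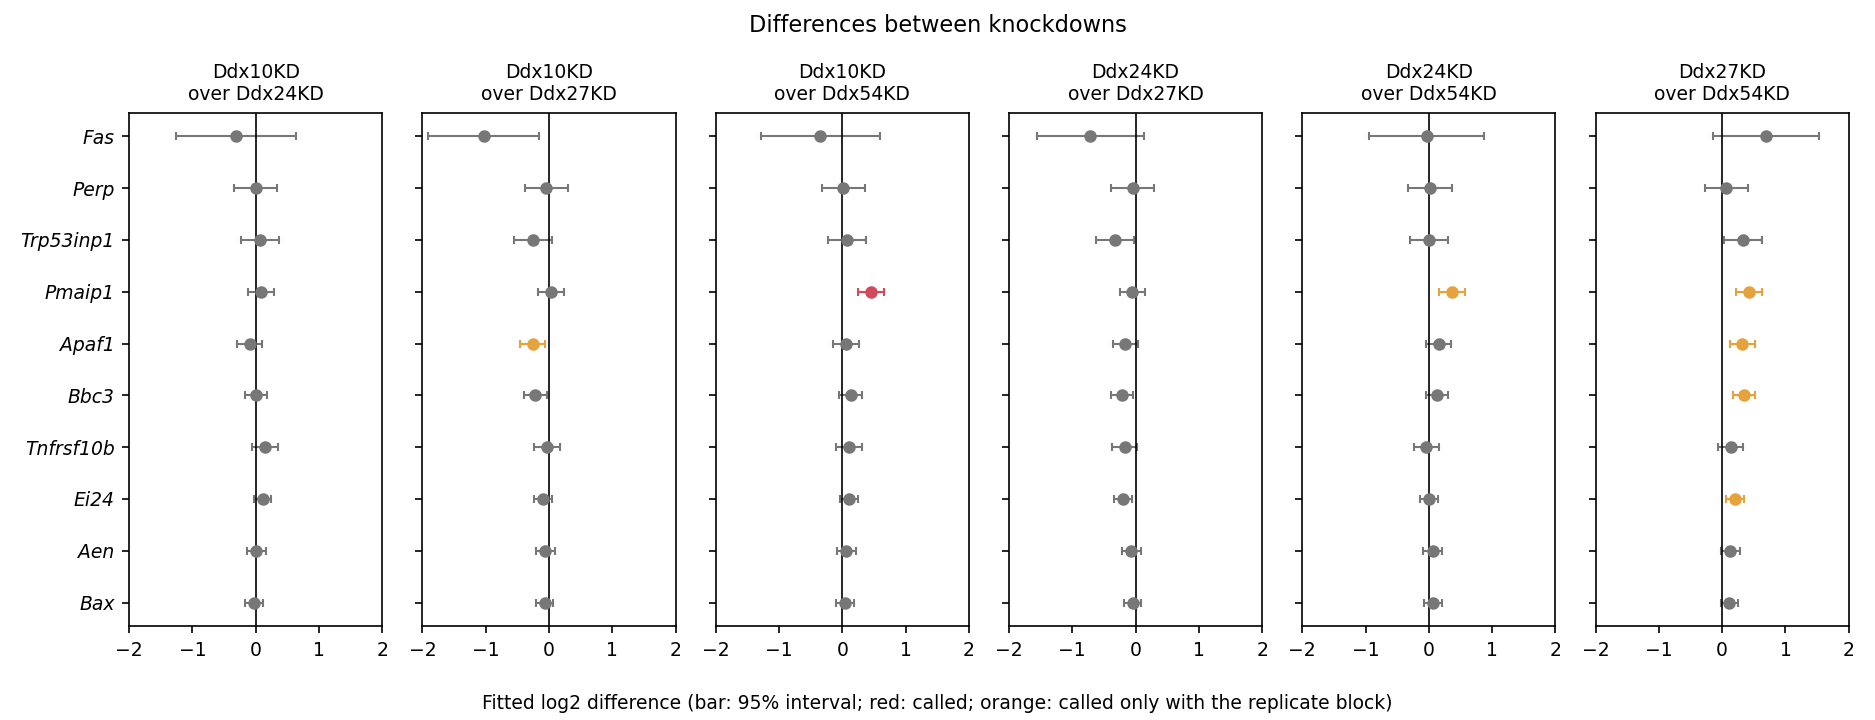
Fitted log2 difference of each gene in the 6 pairs of knockdowns (horizontal axis), the first-named over the second, without the replicate block; bars are 95% intervals. Pmaip1 in Ddx10KD over Ddx54KD, at 0.45, is red as the call of this fit, and 6 further values, 4 of them in Ddx27KD over Ddx54KD, are orange as called with the block alone.

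The p53 gene and 5 genes of its feedback loops were read in the same libraries. Trp53, the p53 gene itself, averaged 935 ± 16.6 TPM in Ddx10KD and 802 ± 28.1 TPM in EGFPKD (SD, n = 3 each), a log2 change of 0.16 ± 0.052 (SE) with adjusted p = 0.0248 by edgeR. It was not called in Ddx24KD (0.12, adjusted p = 0.0852 by edgeR), Ddx27KD (0.13, 0.0581) or Ddx54KD (0.11, 0.152), though with the replicate block it was in Ddx24KD (0.0220) and Ddx27KD (0.0135). Mdm2, which degrades p53, averaged 239.6 TPM in Ddx10KD, 247 in Ddx24KD, 298 in Ddx27KD and 227 in Ddx54KD, against 73.7 TPM in EGFPKD, and was called higher in all 4. So were the cell cycle inhibitor Cdkn1a, the cyclin Ccng1 and the p53 phosphatase Ppm1d, with log2 changes of 1.20 to 1.56, 1.25 to 1.55 and 0.41 to 0.54. Mdm4, the partner of Mdm2, was called in Ddx24KD (0.33), Ddx27KD (0.48) and Ddx54KD (0.31), and was at 0.25 in Ddx10KD (adjusted p = 0.0575, or 0.00104 with the block). In each knockdown 5 of these 6 genes were called higher and none lower (6 in Ddx10KD, Ddx24KD and Ddx27KD with the block), and the median log2 change of the 6 was 0.98 in Ddx10KD, 0.81 in Ddx24KD, 1.04 in Ddx27KD and 0.84 in Ddx54KD. Over all tested genes the block called 22.8% higher and 21.3% lower in Ddx10KD, 21.3% and 19.9% in Ddx24KD, 23.3% and 22.6% in Ddx27KD, and 20.0% and 18.8% in Ddx54KD. RNA levels do not show the amount of p53 protein, which was not measured here.

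Of 12 other p53 targets tied to cell death, 8 were called higher in Ddx10KD, 7 in Ddx24KD, 9 in Ddx27KD and 8 in Ddx54KD, beside 13.1% to 17.3% over all genes. Called lower were 0 of the 12 in Ddx10KD (14.5% of all tested genes), 1 in Ddx24KD (13.1%), 1 in Ddx27KD (16.1%) and 0 in Ddx54KD (11.2%). With the replicate block 8 of the 12 were called higher and 1 lower in Ddx10KD, and 8 and 1 in Ddx24KD. The block called 9 and 1 in Ddx27KD, and 8 and 0 in Ddx54KD. Over all genes it called 20.0% to 23.3% higher and 18.8% to 22.6% lower. The median log2 change of the 12 was 0.43 in Ddx10KD, 0.38 in Ddx24KD, 0.50 in Ddx27KD and 0.43 in Ddx54KD. Phlda3, an inhibitor of the survival kinase Akt, averaged 105 TPM in Ddx10KD, 89.3 in Ddx24KD, 109 in Ddx27KD and 92.0 in Ddx54KD, against 29.5 TPM in EGFPKD, a log2 change of 1.58 to 1.86 over the 4 comparisons. Trp53i11, a p53-induced gene, changed by 1.04 to 1.57, Pidd1, a caspase-2 scaffold, by 0.96 to 1.33, and Zmat3, an RNA-binding protein, by 0.80 to 1.05, all called in every knockdown. Triap1, an inhibitor of the apoptosome, was called higher in Ddx27KD (0.24, adjusted p = 0.0430 by edgeR), and was at 0.16 in Ddx10KD, 0.15 in Ddx24KD and 0.10 in Ddx54KD. Steap3, a ferrireductase, was called lower in Ddx24KD (-0.61, adjusted p = 0.0105 by edgeR) and Ddx27KD (-0.49, 0.0277), and was at -0.42 in Ddx10KD and -0.087 in Ddx54KD without a call.

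Of 8 other pro-death members of the BCL2 family none was called higher, and 3 were called lower in Ddx10KD, 3 in Ddx24KD, 3 in Ddx27KD and 2 in Ddx54KD. Over all genes 13.1% to 17.3% were called higher and 11.2% to 16.1% lower. The median log2 change of the 8 was -0.21 in Ddx10KD, -0.16 in Ddx24KD, -0.051 in Ddx27KD and -0.048 in Ddx54KD. With the replicate block 0 were called higher and 5 lower in Ddx10KD, 2 and 4 in Ddx24KD, 1 and 3 in Ddx27KD, and 1 and 3 in Ddx54KD, beside 20.0% to 23.3% higher and 18.8% to 22.6% lower over all genes. Bak1, which forms pores as Bax does, averaged 59.9 TPM in Ddx10KD, 62.3 in Ddx24KD, 59.9 in Ddx27KD and 63.8 in Ddx54KD, against 77.6 TPM in EGFPKD. Bak1 fell by 0.43 on the log2 scale in Ddx10KD, by 0.33 in Ddx24KD and by 0.40 in Ddx27KD, and was at -0.30 in Ddx54KD (adjusted p = 0.0617 by edgeR). Bok, a further pore-former, fell in all 4 by 0.36 to 0.61 on the log2 scale, and the BH3-only gene Hrk fell by 0.76 to 1.20, at group means of 0.28 to 0.37 TPM in the knockdowns and 0.63 TPM in EGFPKD. Bax and Bak1, both pore-formers, were thus called in opposite directions in Ddx10KD, Ddx24KD and Ddx27KD.

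Of 8 pro-survival BCL2 genes 5 passed the count filter, as Bcl2a1a, Bcl2a1b and Bcl2a1d were at 0. Called higher were 1 in Ddx10KD, 2 in Ddx24KD, 3 in Ddx27KD and 1 in Ddx54KD, and none was called lower, beside 13.1% to 17.3% called higher over all genes. With the block 2 were called higher in Ddx10KD, 2 in Ddx24KD, 4 in Ddx27KD and 2 in Ddx54KD, beside 20.0% to 23.3%. A count of 1 among 5 is close to the share over all genes. The median log2 change was 0.11 in Ddx10KD, 0.16 in Ddx24KD, 0.27 in Ddx27KD and 0.16 in Ddx54KD. Bcl2l1, which encodes BCL-XL, rose in all 4 knockdowns, by 0.25 ± 0.063 (SE) in Ddx10KD, 0.38 ± 0.063 in Ddx24KD, 0.27 ± 0.063 in Ddx27KD and 0.18 ± 0.063 in Ddx54KD. Mcl1, the partner that NOXA antagonises, rose in Ddx24KD (0.16) and Ddx27KD (0.17), and was at 0.11 in Ddx10KD (adjusted p = 0.0871, or 0.0218 with the block) and 0.13 in Ddx54KD (0.0593, or 0.0109 with the block). Bcl2l10, at under 1 TPM on average in every group, was called in Ddx27KD alone (1.17, adjusted p = 0.0250 by edgeR).

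Downstream of the mitochondrion, 14 genes for caspases, cytochrome c, inhibitors of apoptosis and nucleases were tested. Called higher and lower were 1 and 2 in Ddx10KD, 1 and 1 in Ddx24KD, 1 and 2 in Ddx27KD and 1 and 2 in Ddx54KD, and the median log2 change was 0.030 in Ddx10KD, 0.045 in Ddx24KD, -0.018 in Ddx27KD and 0.0049 in Ddx54KD. These counts are close to or below the shares over all genes, 13.1% to 17.3% higher and 11.2% to 16.1% lower. With the block 1 and 3 were called in Ddx10KD, 3 and 2 in Ddx24KD, 3 and 2 in Ddx27KD, and 2 and 2 in Ddx54KD, beside 20.0% to 23.3% higher and 18.8% to 22.6% lower. Dffb, the caspase-activated nuclease, was the gene called higher in all 4, at 10.6 TPM in Ddx10KD, 10.6 in Ddx24KD, 12.8 in Ddx27KD and 11.6 in Ddx54KD, against 7.94 TPM in EGFPKD. Cycs, cytochrome c, fell in all 4 by 0.20 to 0.31 on the log2 scale, and Birc6, a large inhibitor of apoptosis, in Ddx10KD, Ddx27KD and Ddx54KD by 0.23 to 0.29. Casp9, the initiator caspase that the apoptosome activates, was at -0.033 to 0.040 and was not called in any knockdown, with or without the block.

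Of 10 further genes of the receptor arm 9 were tested, as Fasl, the ligand of Fas, was at or below 0.04 TPM, and none was called higher. Called lower were 2 in Ddx10KD, 1 in Ddx24KD, 1 in Ddx27KD and 2 in Ddx54KD, beside 11.2% to 16.1% over all genes. With the block 2 were called lower in Ddx10KD, 2 in Ddx24KD, 2 in Ddx27KD and 3 in Ddx54KD, beside 18.8% to 22.6%. The median log2 change was -0.31 in Ddx10KD, -0.26 in Ddx24KD, -0.20 in Ddx27KD and -0.13 in Ddx54KD. Cflar, an inhibitor of caspase-8 at death receptors, averaged 9.02 TPM in Ddx10KD, 8.23 in Ddx24KD, 8.64 in Ddx27KD and 8.81 in Ddx54KD, against 11.3 TPM in EGFPKD. It fell in all 4, with a log2 change of -0.43 in Ddx10KD, -0.55 in Ddx24KD, -0.46 in Ddx27KD and -0.44 in Ddx54KD. Tnfrsf1a, a receptor for tumor necrosis factor, was called lower in Ddx10KD (-0.61, adjusted p = 0.00390 by edgeR), and Tnfsf10, which encodes TRAIL, in Ddx54KD (-0.66, 0.0426). Casp8, the initiator caspase of this arm, averaged 0.88 to 1.05 TPM in the knockdowns and 1.16 TPM in EGFPKD, with no call.

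**Figure D4:**
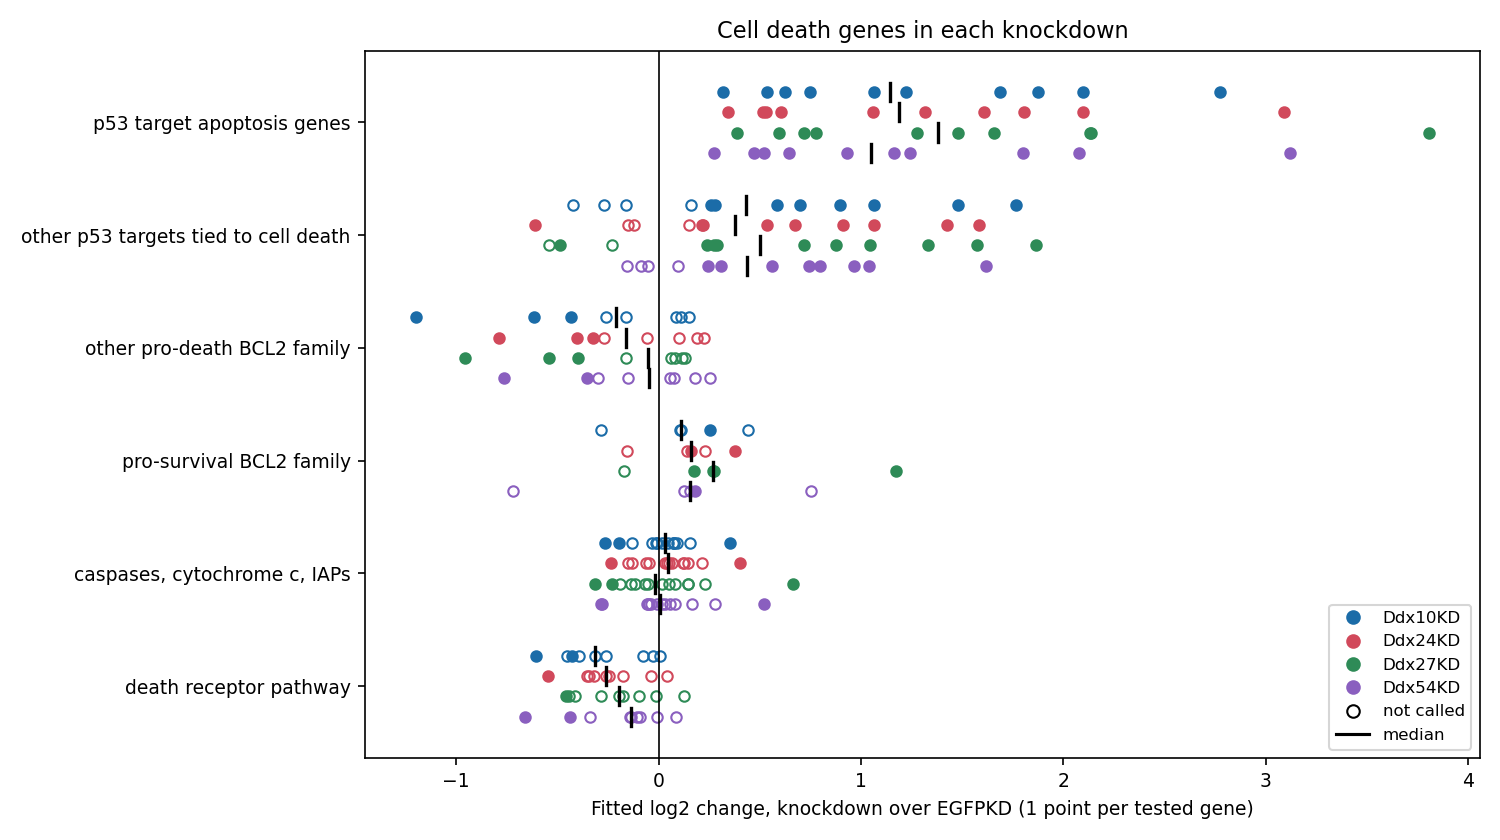
Fitted log2 change over EGFPKD (horizontal axis) of each tested gene in the 10 p53 target genes and in 5 other groups of cell death genes, 1 row of points per knockdown; filled points were called at adjusted p under 0.05, and black bars are medians. The 10 genes lie wholly above 0, with medians of 1.05 to 1.38. Medians were 0.38 to 0.50 for other p53 targets, 0.11 to 0.27 for pro-survival genes and -0.018 to 0.045 for the caspase row. For other pro-death genes they were -0.21 to -0.048, and for the death receptor pathway -0.31 to -0.13.

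Genes that followed the 10 most closely across libraries were sought among 9544 others with a mean of at least 5 TPM in some group. The likeness was Pearson's r between a gene's log2 CPM and the mean standardised log2 CPM of the 10 genes over 15 libraries. It was 0.996 for Man2b1, a lysosomal mannosidase, 0.995 for the phosphatase Ptp4a3, 0.994 for the kinase Plk2, 0.993 for Eng, a TGF-beta co-receptor, 0.992 for the kinase Zak and 0.992 for Ddit4l. These values are descriptions, and the shared contrast of 12 knockdown and 3 EGFPKD libraries sets much of them. After group means were removed the r was 0.96 for Man2b1, 0.88 for Ptp4a3, 0.89 for Plk2, 0.87 for Eng, 0.84 for Zak and 0.94 for Ddit4l. Among the 10 genes, r to the mean of the other 9 was highest for Bbc3 (0.989) and lowest for Bax (0.871).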

How the data were processed

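Gene tables of 15 libraries, 3 for each of Ddx10KD, Ddx24KD, Ddx27KD, Ddx54KD and EGFPKD, were used, with groups and replicate numbers taken from the labels. The authors deposited RSEM expected counts per gene, which are estimated read counts with no depth scaling, and TPM, per the file headers; RSEM and mm10 are per the submitters' processing notes, while the sources used here name no aligner, version or annotation. The deposited EBSeq tables hold for each knockdown, per the file headers, a posterior probability of differential expression, a score from 0 to 1, and a fold change, a linear ratio of knockdown to EGFPKD. The 10 genes and the other gene lists were chosen with earlier results of these data known.

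Expected counts were rounded, filtered with filterByExpr (14335 of 23845 genes kept) and scaled by TMM in edgeR 4.0.16 under R 4.3.3. All 15 libraries entered 1 quasi-likelihood fit with the group as the only term, with Benjamini-Hochberg adjustment across the 14335 genes within each comparison and calls at an adjusted p under 0.05. Standard errors were computed from the test statistic. CPM are counts scaled to the TMM-corrected library size. Levels are TPM means with SD. The replicate numbers were checked for pairing: all 30 correlations between same-numbered libraries of different groups, after removing group means, exceeded 0.1 (0.106 to 0.335), and 15 of 15 libraries were nearest to their own number, so the numbers were taken to pair the libraries and the replicate number was used as a block in a second fit. The sources used here do not say what the numbers stand for. Alternatives were RLE factors, DESeq2 1.42.0, no filter, at least 10 CPM in at least 3 libraries, the block, fits of only the groups compared, fits without each library in turn, an adjusted p under 0.01, a 2-fold minimum and the authors' EBSeq probability of at least 0.95.

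Genes outside the 10 are named by a rule: from each list up to 4 called alike in all 4 knockdowns with the largest mean change, up to 2 called in the fewest with the smallest p, all p53 feedback genes, and the 6 genes of most similar pattern. Casp8 and Casp9 fall outside it and were chosen after their values were seen. 1 gene of these lists is not reported here by name.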

Additional observations from a re-analysis of the deposited data

Results flagged for a closer look

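Pmaip1 differed between knockdowns: the change against EGFPKD was larger in Ddx10KD than in Ddx54KD, by 0.45 ± 0.097 on the log2 scale (SE, adjusted p = 0.0318 by edgeR), higher in 3 of 3 Ddx10KD libraries than in any of 3 Ddx54KD libraries. It was chosen by this test, 1 call among 60 values in 6 pairs. The call depends on single libraries, as given above, and with the replicate block its adjusted p by edgeR was 0.00346. The cause was not tested.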

How the results depend on the processing

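Over 40 changes against EGFPKD, all 473 values from other edgeR and DESeq2 settings kept their direction and call, with adjusted p up to 0.0417 by edgeR (Bax in Ddx54KD without Ddx54KD replicate 2). Fas gave no value at 10 CPM in 3 libraries, nor in fits of Ddx10KD, Ddx24KD or Ddx54KD with EGFPKD alone, where it failed the filter. Fas in Ddx10KD was also the 1 change without a call in the authors' deposited EBSeq tables, and its few counts limit what depth can show.

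What moved were counts of calls over all genes, and the calls between knockdowns, and the cause was not tested. Without the block 4438 genes were called in Ddx10KD against EGFPKD, 4026 in Ddx24KD, 4788 in Ddx27KD and 3483 in Ddx54KD. With the replicate block the count in Ddx54KD was 5570, and no call of the 10 genes against EGFPKD changed. At an adjusted p under 0.01 these counts were 2673, 2310, 3039 and 1860, and with a 2-fold minimum 713, 646, 796 and 534, with 6, 6, 6 and 5 of the 10 genes left. Without Fas, 5, 5, 5 and 4 of 9 were left at the 2-fold minimum. Leaving out 1 library, in fits without the block, gave 2232 to 3469 for Ddx54KD, the lowest without Ddx54KD replicate 3.

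Between knockdowns, Ddx10KD against Ddx24KD gave 59 calls, Ddx10KD against Ddx27KD 32, Ddx10KD against Ddx54KD 205, Ddx24KD against Ddx27KD 3, Ddx24KD against Ddx54KD 8 and Ddx27KD against Ddx54KD 2. In the same order of pairs they were 776, 766, 1517, 8, 250 and 375 with the replicate block, and 174, 173, 440, 5, 21 and 29 by DESeq2. Of the 10 genes, the block called 1 in Ddx10KD against Ddx27KD, 1 in Ddx24KD against Ddx54KD and 4 in Ddx27KD against Ddx54KD, and DESeq2 called 2 in the last. Fits of only the compared groups gave 18, 13 and 120 for the first 3 pairs, 2 for Ddx24KD against Ddx54KD and 14 for Ddx27KD against Ddx54KD. At 10 CPM, Ddx24KD against Ddx54KD gave 5. An adjusted p under 0.01 gave 28, 13 and 43 for the first 3 pairs and 3 for Ddx24KD against Ddx54KD, and a 2-fold minimum 20, 3, 12 and 4. Under both the call of Pmaip1 in Ddx10KD over Ddx54KD was lost, leaving 0. Leaving out 1 library gave 28 to 60, 8 to 30 and 44 to 96 for the first 3 pairs, 3 to 26 for Ddx24KD against Ddx54KD, and 0 to 1 of the 10 genes in Ddx10KD against Ddx54KD.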
